A study of Homo sapiens with 12 samples.

Results

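The 9 genes described here encode components and regulators of the complement system in MDA-MB-231, a triple-negative breast cancer cell line of human origin. They were taken by gene name from the 58735 genes of the tables: the central component C3, factor B (CFB), the proteases C1r (C1R) and C1s (C1S), factor I (CFI), C1 inhibitor (SERPING1) and the membrane regulators CD46, CD55 and CD59. Total RNA was sequenced from cells with a guide RNA against UFM1 (group sgUFM1), with a guide against UFL1 (sgUFL1), or with a control guide in separate control groups for each (sgCtrl_to_sgUFM1 and sgCtrl_to_sgUFL1), with 3 libraries per group. UFM1 is a small modifier related to ubiquitin, and the ligase UFL1 couples it to substrates, many of them at the endoplasmic reticulum. The series title calls the cells a knockdown and its design text a knockout, and the labels state neither clones nor separate cultures, so every p-value reflects only how these libraries vary, and that variation may be technical. In bulk RNA, a smaller share of cells with a transcript and less of it per cell cannot be told apart.

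The count and FPKM tables exchange 2 of the 4 group names. Set 1 is the 3 libraries with sgUFL1 as their count columns' name and sgCtrl_to_sgUFM1 as their FPKM columns' name. Set 2 is the reverse case, sgCtrl_to_sgUFM1 by its count columns and sgUFL1 by its FPKM columns. The sgUFM1 libraries and the controls for sgUFL1 carry the same names in both tables, so that comparison comes first, although by title these controls belong to the other guide. UFM1 RNA averaged 38.7 ± 1.39 CPM in sgUFM1, 53.6 ± 4.11 in set 1, 53.7 ± 2.14 in set 2 and 65.4 ± 5.84 in the controls for sgUFL1 (CPM, counts scaled by library size with TMM factors; SD, n = 3 each). UFL1 RNA averaged 5.04 ± 0.512 FPKM in sgUFM1, 3.94 ± 0.274 in set 1, 2.71 ± 0.194 in set 2 and 5.43 ± 1.16 in the controls (fragments scaled by depth and transcript length), and was thus lowest in the set that the count table names controls.

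Several libraries stood apart from their groups. Over 11051 genes with a mean of at least 5 CPM, the SD of the log2 ratio of set 1 replicate 1 to the nearest library of its own set was 0.35, and to set 2 replicate 1 it was 0.27. Replicate 2 of the controls for sgUFL1 lay 0.35 from the nearest library of its own group and 0.29 from set 1 replicate 2. Control replicate 1 lay 0.31 from its nearest own library and 0.29 from set 1 replicate 1. The other 9 libraries were each nearest to a library of their own group. For set 1 replicate 1 and control replicate 2, which had 3 and 4 libraries of other groups nearer than any of their own, results are also given without them. For control replicate 1, which had 1 such library, this is done for C3 in sgUFM1. Markers of the basal-like or mesenchymal line were all detected, at a summed 2530 to 3130 CPM. The 6 luminal markers were also all detected in each group, at a summed 125 to 245 CPM. Of these KRT19 averaged 140 CPM in sgUFM1, 141 CPM in set 1, 203 CPM in set 2 and 118 CPM in the controls. Leukocyte markers summed to 2.00 to 4.21 CPM with CD3E at 0 in every library, and hepatocyte markers to 0.127 to 0.936 CPM with HP at 0 in every library.

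Complement is a cascade of plasma proteins that mark and lyse cells. In the classical pathway C1r activates C1s, which cleaves the next components. All pathways meet at C3, whose cleaved fragment binds surfaces and joins factor B to form the convertase of the alternative pathway, which cleaves more C3. Cells protect themselves with CD55, which speeds the decay of convertases, with CD46, a cofactor for the cleavage of bound C3 and C4 fragments by factor I, and with CD59, which blocks assembly of the membrane attack complex, while C1 inhibitor inactivates C1r and C1s. The liver makes most plasma complement, and other cells also make C3 and factor B when inflammatory cytokines act on them.

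Promoter sequences were available for 6 of the 9 genes in RefSeq (GRCh38.p14), and C3, C1S and SERPING1 had no entry. The 250 bases before the start site are shown for CFB and C1R, as the pathway genes of low RNA level, and for CD55 and CD46, the neighbouring regulators of chromosome 1, each 5′ to 3′ with motif matches in capitals.
CFB, chr6:31945845-31946094, plus strand: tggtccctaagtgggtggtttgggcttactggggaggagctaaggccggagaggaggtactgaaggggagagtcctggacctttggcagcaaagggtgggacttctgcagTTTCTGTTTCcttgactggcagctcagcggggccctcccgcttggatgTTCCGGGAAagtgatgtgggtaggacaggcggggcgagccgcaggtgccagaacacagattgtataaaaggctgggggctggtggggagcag
C1R, chr12:7092446-7092695, minus strand: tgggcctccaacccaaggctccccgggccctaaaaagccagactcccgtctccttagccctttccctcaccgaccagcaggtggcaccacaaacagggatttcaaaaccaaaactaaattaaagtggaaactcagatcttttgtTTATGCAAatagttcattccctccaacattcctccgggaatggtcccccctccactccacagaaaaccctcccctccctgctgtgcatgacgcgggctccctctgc
CD55, chr1:207321428-207321677, plus strand: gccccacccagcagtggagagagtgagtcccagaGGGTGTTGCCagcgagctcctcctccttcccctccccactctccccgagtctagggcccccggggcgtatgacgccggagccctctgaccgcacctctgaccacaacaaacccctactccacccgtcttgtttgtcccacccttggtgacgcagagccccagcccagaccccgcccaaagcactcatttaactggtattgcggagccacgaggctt
CD46, chr1:207751788-207752037, plus strand: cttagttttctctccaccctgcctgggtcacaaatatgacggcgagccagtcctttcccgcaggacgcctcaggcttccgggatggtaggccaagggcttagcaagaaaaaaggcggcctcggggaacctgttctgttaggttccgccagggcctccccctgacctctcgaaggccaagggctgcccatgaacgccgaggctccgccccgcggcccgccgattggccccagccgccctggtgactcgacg
The windows were searched for 6 motifs on both strands. In CFB the capitals mark a match to the ISRE (on the opposite strand, as TTTCTGTTTC) at position -140 from the start site and one to the STAT element (TTCNNNGAA, here TTCCGGGAA) at -92. In C1R they mark a C/EBP motif (TTGCNNAA, on the opposite strand as TTATGCAA) at -106, and in CD55 an NF-kB motif (here GGGTGTTGCC) at -216. The table holds a second start site for C1R and for CD46, not shown here, and the second C1R window has a STAT element at -86 and a C/EBP motif at -167. The CD46 windows held none of the 6, which also included AP-1 (TGANTCA) and the XBP1 core (TGACGTG). Of 35116 promoter windows of 300 bases, 3.57% held the ISRE, 7.66% the STAT element, 10.46% the C/EBP motif, 5.68% the NF-kB motif, 7.71% the AP-1 motif and 1.97% the XBP1 core. These matches are letters only and were not tested as binding sites.

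C3 was higher in the sgUFM1 libraries than in every other library. C3 (ENSG00000125730; GRCh38 chromosome 19, 6677704 to 6730562, minus strand) stood at 535, 530 and 522 CPM in the sgUFM1 libraries, 175, 361 and 354 CPM in set 1, 224, 238 and 244 CPM in set 2, and 164, 322 and 150 CPM in the controls for sgUFL1. The sgUFM1 libraries lay close together and overlapped with no other group, while set 1 had 1 low library and the controls 1 high library. Per transcript length the mean was 63.0 ± 0.721 FPKM in sgUFM1, 35.2 ± 12.3 in set 1, 28.0 ± 1.21 in set 2 and 25.3 ± 11.4 in the controls (SD, n = 3 each). It had the highest mean FPKM of the 9 genes in sgUFM1 and in both sets, while in the controls CD55 was higher, at 27.1 FPKM.

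**Figure D1:**
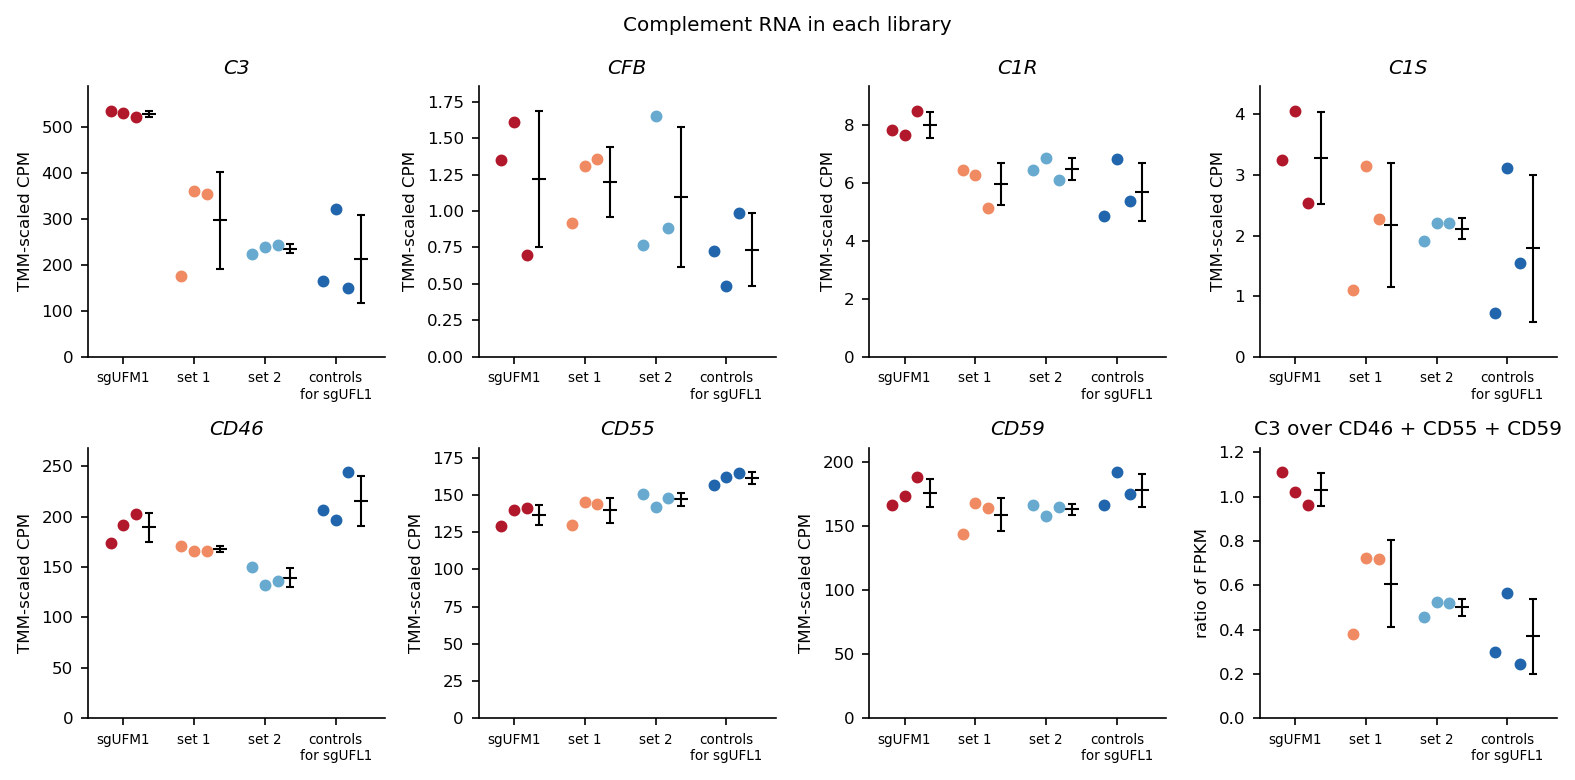
TMM-scaled CPM of the 7 complement genes that passed the filter on low counts, by library (dots) with mean ± SD (bars, n = 3), and in the last panel the ratio of C3 FPKM to the summed FPKM of CD46, CD55 and CD59. The sgUFM1 libraries sit at 522 to 535 CPM for C3, above the highest other library at 361 CPM.

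Of the 9 genes, 7 passed the filter on low counts, and C3 was the only one called in sgUFM1 against the controls for sgUFL1. Its log2 fold change was 1.31 (SE 0.22, adjusted p = 0.0053, edgeR's quasi-likelihood test with Benjamini-Hochberg adjustment over all genes tested). The background was 5.57% of 15035 genes called higher and 4.43% called lower. The median log2 fold change was 0.48 over the 7 genes, against -0.0045 over all genes. C3 was called under every alternative run except limma on log2(FPKM + 0.5) with no filter on low values, where its log2 difference was 1.39 (adjusted p = 0.13). Without control replicate 2, which stands apart, the log2 fold change was 1.74 (adjusted p = 3.5e-08), and without control replicate 1 it was 1.17 (adjusted p = 0.039). The sum of 6 markers of fibroblasts and endothelium was also highest in sgUFM1, largely through PECAM1. The sum was 44.9 to 49.4 CPM across the sgUFM1 libraries and 22.9 to 31.0 CPM for set 1. It was 29.1 to 29.9 CPM for set 2 and 20.7 to 22.2 CPM for the controls. PECAM1 averaged 26.8 CPM in sgUFM1, 9.1 CPM in set 1, 9.75 CPM in set 2 and 7.78 CPM in the controls. Of these 6 markers 3 were tested. PECAM1 and PDGFRB were higher against the controls and PECAM1 alone against each set. DCN was at 0 in all libraries of sgUFM1 and set 2, and CDH5 was at 0 in all libraries of set 1 and the controls. The part of these markers in the result was not tested.

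Against set 2, C3 had a log2 fold change of 1.18 (SE 0.06, adjusted p = 1.1e-11, edgeR), and CD46 was the other gene called. The background there was 19.3% of 15083 genes called higher and 18.5% lower, so calls were common. The median was 0.31 over the 7 genes and 0.01 over all genes. C3 was called under every alternative run in this comparison, with log2 values of 1.13 to 1.22.

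Against set 1, C3 had a log2 fold change of 0.84 (SE 0.20, adjusted p = 0.029, edgeR) and was the only gene called, where 4.57% of 14977 genes were called higher and 5.15% lower. The median was 0.18 over the 7 genes and -0.0062 over all genes. This call ended in 1 model over all 12 libraries (adjusted p = 0.063), in limma on FPKM (0.084 to 0.21) and without any one of the sgUFM1 replicates (0.094 to 0.13). Without set 1 replicate 1, which stands apart, 3 genes were called, C3, C1R and CD46, and the log2 fold change of C3 was 0.57. Of all 15309 genes tested, 1838 were then called higher and 2242 lower, against 685 and 771 of 14977 with all libraries.

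**Figure D2:**
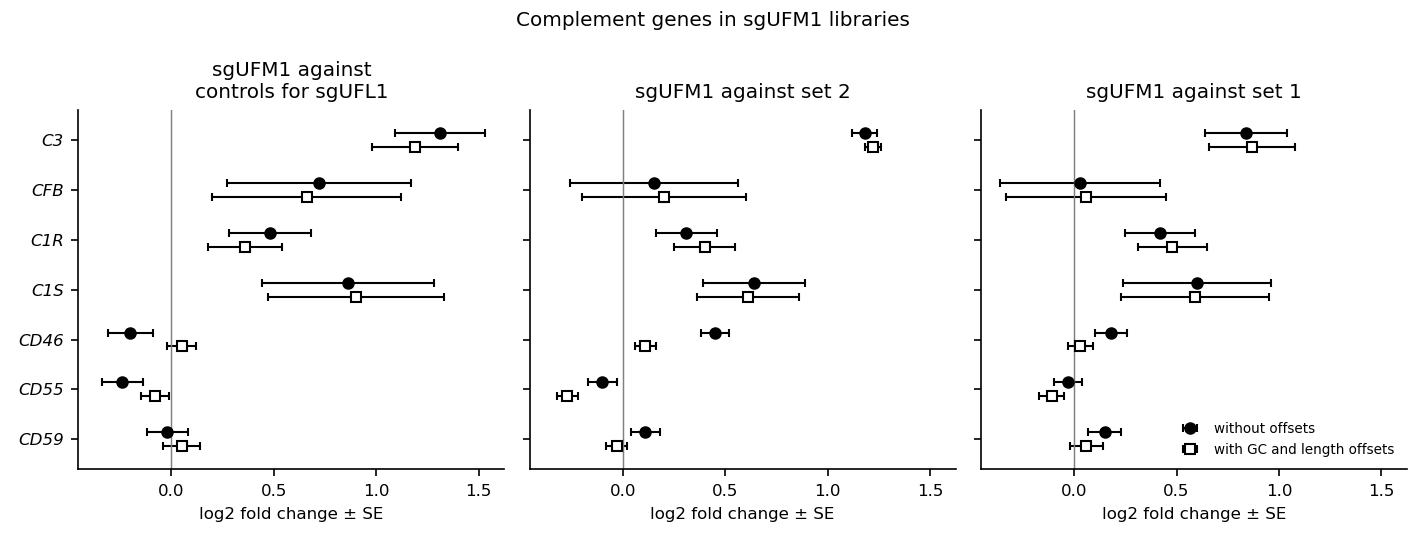
Log2 fold change ± SE of the 7 genes in the sgUFM1 libraries against each of the 3 other groups, as fitted in edgeR (filled circles) and with offsets for GC content and transcript length (open squares). C3 lies between 0.84 and 1.31 in all 3 panels and stays there with offsets, while CD46 against set 2 lies at 0.45 without offsets and at 0.11 with them.

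Among the groups without the UFM1 guide the C3 levels were not separated from each other, since the ranges of set 1 and of the controls both spanned those of set 2. Set 1 against the controls for sgUFL1 had a log2 fold change of 0.49 in C3 (SE 0.32, adjusted p = 0.34, edgeR). No complement gene was called there by edgeR, where 1.08% of 14996 genes were higher and 0.02% lower. At an unadjusted p under 0.05 there was 1, CD46, which DESeq2 called. With set 1 replicate 1 and control replicate 2 both left out, C3 rose by 1.19 (SE 0.10, adjusted p = 2.4e-04, edgeR), and 2806 genes were called higher and 2023 lower over the whole table, against 162 and 3 with all libraries. That leaves 2 libraries in each group. Set 2 against the same controls had a C3 log2 fold change of 0.13 (SE 0.22, adjusted p = 0.66), which became 0.56 (adjusted p = 7.9e-04) without control replicate 2. Set 1 against set 2 had 0.32 (SE 0.21, adjusted p = 0.42), and 0.58 (adjusted p = 2.7e-05) without set 1 replicate 1.

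The difference between the effects of the guides, each taken against its own controls, is the same under both namings. For C3 this difference was -0.69 on the log2 scale (SE 0.36, adjusted p = 0.15, edgeR over 12 libraries), the UFL1 guide minus the UFM1 guide. With set 1 replicate 1 and control replicate 2 left out it was -0.03 (SE 0.10, adjusted p = 0.86).

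The genes whose pattern was most like that of C3 were picked by correlation over these same libraries. Among 10535 protein-coding genes of at least 5 CPM, the 3 with the highest Pearson correlation of log2 CPM with C3 over the 12 libraries were VEGFA, an endothelial growth factor (r = 0.996), CSF3, the granulocyte growth factor G-CSF (r = 0.993), and PDIA4, a disulfide isomerase of the endoplasmic reticulum (r = 0.986). The libraries fall into 4 groups and the genes were picked by this correlation, so these values describe likeness only. CSF3 stood at 930, 909 and 894 CPM in sgUFM1, 115, 522 and 526 CPM in set 1, 217, 235 and 234 CPM in set 2, and 97.2, 467 and 98.8 CPM in the controls. Set 1 replicate 1 was low and control replicate 2 high, as in C3, which follows from how the genes were picked. VEGFA had 873 to 978 CPM across the sgUFM1 libraries, while the range was 310 to 655 CPM for set 1, 423 to 454 CPM for set 2 and 261 to 551 CPM for the controls.

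**Figure D3:**
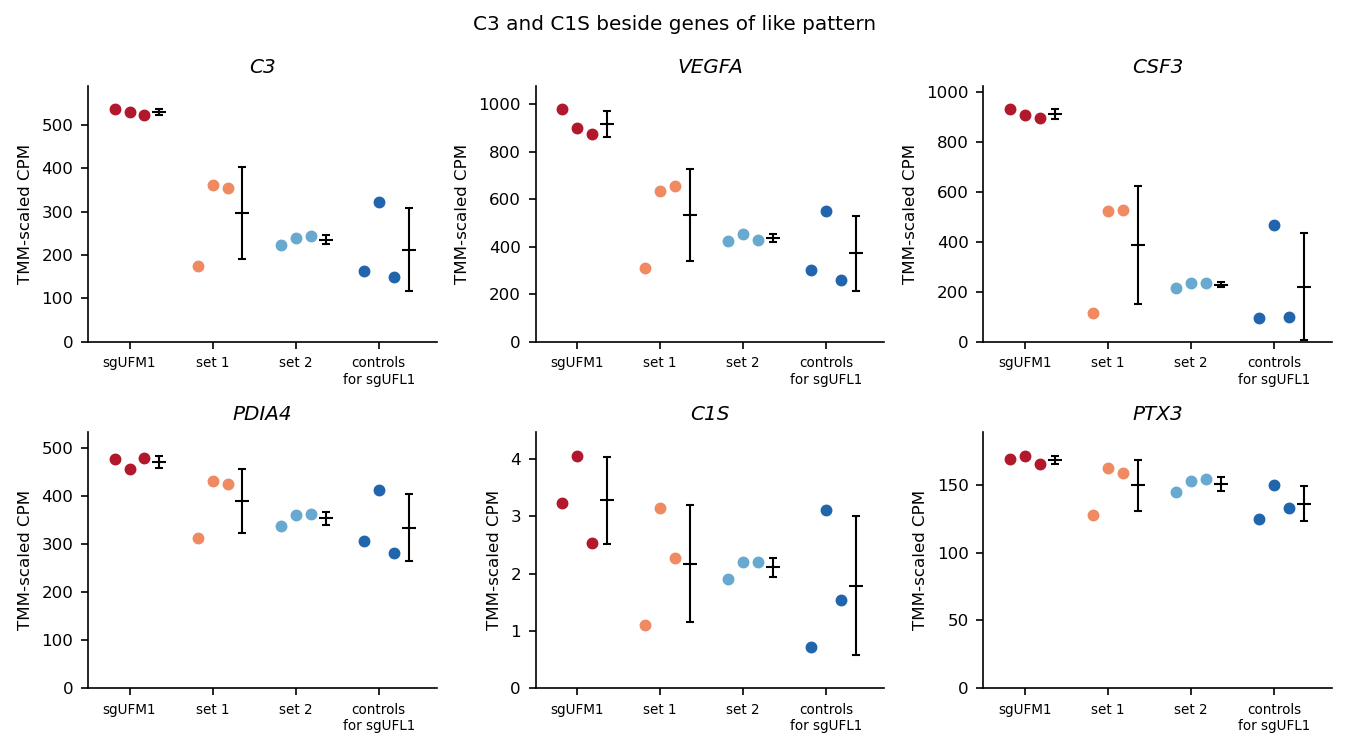
TMM-scaled CPM by library (dots) with mean ± SD (bars, n = 3) for C3, the 3 genes most like it, C1S and PTX3, the gene most like C1S. Set 1 replicate 1 (left dot) is the lowest of its set and control replicate 2 (middle dot) the highest of its group in all 6 panels. The like genes were picked by correlation over these libraries, so the shared pattern follows from the choice.

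The classical pathway proteases were low, at a mean of 1.35 FPKM for C1R and 0.503 FPKM for C1S in sgUFM1 and 0.961 and 0.276 FPKM in the controls, and both were highest on average in the sgUFM1 libraries. C1R (ENSG00000159403; chromosome 12, 7080199 to 7092607, minus strand) stood at 7.83, 7.66 and 8.51 CPM in sgUFM1, 6.45, 6.30 and 5.13 CPM in set 1, 6.45, 6.87 and 6.12 CPM in set 2, and 4.88, 6.83 and 5.38 CPM in the controls. The sgUFM1 libraries overlapped with no other group, but the difference passed the threshold against none of them, with log2 fold changes of 0.48 against the controls (SE 0.20, adjusted p = 0.13), 0.31 against set 2 (SE 0.15, adjusted p = 0.12) and 0.42 against set 1 (SE 0.17, adjusted p = 0.14; edgeR). Without control replicate 2 the first was 0.63 (adjusted p = 0.024), without set 1 replicate 1 the third was 0.49 (adjusted p = 0.044), and with offsets for GC content and length the second was 0.40 (adjusted p = 0.042). Of the exonic bases of C1R, 11.42% are shared with C1RL on the same strand, a gene with 30 to 73 counts per library, so its reads are partly uncertain.

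C1S (ENSG00000182326; chromosome 12, 6988259 to 7071032, plus strand) stood at 3.24, 4.06 and 2.54 CPM in sgUFM1, 1.11, 3.15 and 2.27 CPM in set 1, 1.91, 2.21 and 2.21 CPM in set 2, and 0.723, 3.11 and 1.55 CPM in the controls. The sgUFM1 libraries lay above set 2 and overlapped with set 1 and the controls through set 1 replicate 2 and control replicate 2. Against set 2 the log2 fold change was 0.64 (SE 0.25, adjusted p = 0.051), against the controls 0.86 (SE 0.42, adjusted p = 0.20) and against set 1 0.60 (SE 0.36, adjusted p = 0.32; edgeR). Without control replicate 2 the value against the controls was 1.52 (adjusted p = 0.01). These rest on 12 to 63 counts per library. C1S shares 3.54% of its exonic bases with EMG1 on the same strand, a gene with 932 to 1412 counts per library, so its reads are partly uncertain too. The gene most like it was PTX3, which encodes a pentraxin that binds C1q (r = 0.925 over 12 libraries), with 165 to 171 CPM in sgUFM1 and 125 to 162 CPM elsewhere.

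Factor B and the soluble inhibitors were at or near the limit of detection. CFB (ENSG00000243649; chromosome 6, 31945650 to 31952084, plus strand) stood at 1.35, 1.61 and 0.699 CPM in sgUFM1, 0.921, 1.31 and 1.36 CPM in set 1, 0.765, 1.65 and 0.883 CPM in set 2, and 0.723, 0.488 and 0.990 CPM in the controls, which is 8 to 29 counts per library. All groups overlapped, and the log2 fold change of sgUFM1 against the controls was 0.72 (SE 0.45, adjusted p = 0.32, edgeR). CFB shares 45.01% of its exonic bases with the readthrough gene AL645922.1, which had 0 counts. CFI (ENSG00000205403; chromosome 4, 109740694 to 109802179, minus strand) had 0 counts in all 12 libraries, where 3 counts would be 0.166 to 0.196 CPM. It shares 32.04% of its exonic bases with AC126283.2, which also had 0 counts, so reads that fell in both genes cannot be told from absence. SERPING1 (ENSG00000149131; chromosome 11, 57597387 to 57614853, plus strand) had 0, 0 and 1 count in sgUFM1, 2, 0 and 3 in set 1, 0, 1 and 4 in set 2, and 0, 0 and 2 in the controls, too few to test. RNA of the inhibitor of C1r and C1s was thus near 0 where RNA of both proteases was counted.

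The membrane regulators were all abundant, and their group means lay closer together than those of C3. Their means per transcript length were 21.6 FPKM for CD46, 22.9 FPKM for CD55 and 16.8 FPKM for CD59 in sgUFM1, against 24.6, 27.1 and 17.0 FPKM in the controls for sgUFL1. CD46 (ENSG00000117335; chromosome 1, 207752057 to 207795513, plus strand) stood at 174, 192 and 202 CPM in sgUFM1, 171, 166 and 166 CPM in set 1, 150, 132 and 136 CPM in set 2, and 206, 197 and 244 CPM in the controls. Set 2 was the lowest group and overlapped with none, and the mean of sgUFM1, 189 CPM, lay between those of set 1 (167 CPM) and the controls (216 CPM), with 1 control library within its range.

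CD46 rose by 0.45 in sgUFM1 against set 2 (SE 0.07, adjusted p = 8.7e-05) and fell by 0.65 in set 2 against the controls (SE 0.12, adjusted p = 0.0023; edgeR, log2 scale). In the second comparison 17.4% of 15175 genes were called higher and 18.4% lower, and CD46 was the only complement gene called. The median over the 7 genes was 0.13 there and -0.03 over all genes. Both calls ended once offsets for GC content and transcript length were fitted, at 0.11 (adjusted p = 0.07) and -0.06 (adjusted p = 0.65). Transcripts of CD46 have 37.76% GC, against a median of 48.49% for genes of at least 5 CPM. Weighted by counts, transcript GC content averaged 49.81% to 50.29% across the sgUFM1 libraries and 50.29% to 50.53% for set 1. It was 50.41% to 50.94% for set 2 and 48.33% to 49.38% for the controls. The group means of CD46 ran in the opposite order. Because library GC content differed between groups, a GC bias and a change of expression cannot be told apart, and neither was tested. Set 1 against the controls had a CD46 log2 fold change of -0.36 (SE 0.11, adjusted p = 0.096, edgeR), and of -0.43 (adjusted p = 0.017) without set 1 replicate 1 and control replicate 2. The genes most like CD46 were TIA1 (r = 0.989), an RNA-binding protein, and MIA2 and STAM2 (r = 0.986 for both, over 12 libraries).

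**Figure D4:**
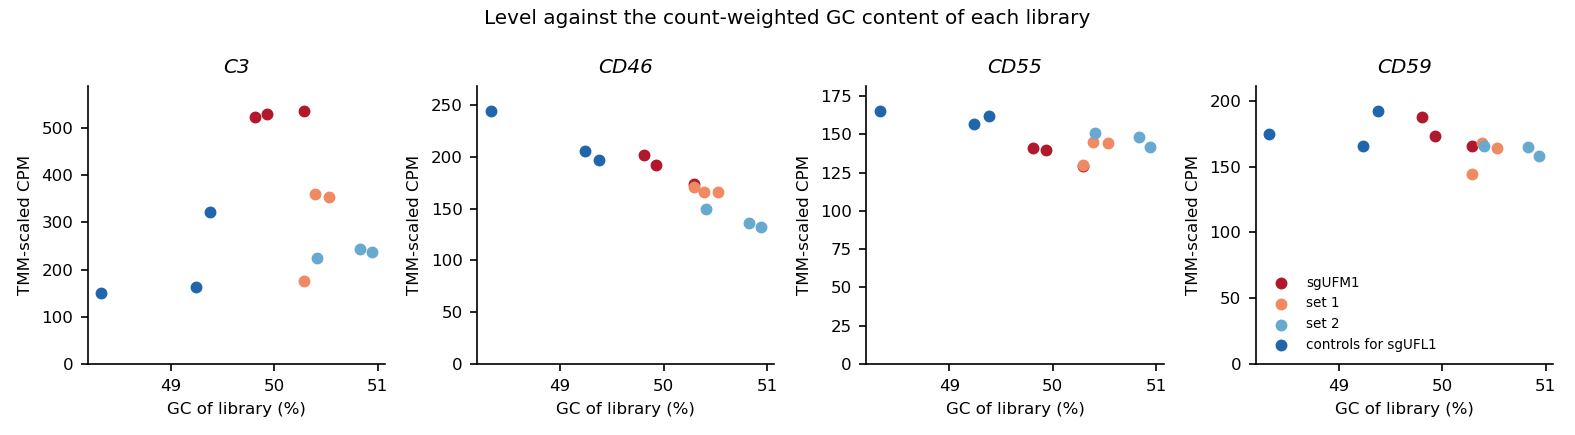
TMM-scaled CPM of C3, CD46, CD55 and CD59 in each of the 12 libraries against the count-weighted mean GC content (%) of the transcripts counted in that library. CD46 stands at 132 CPM in the set 2 library of 50.94% GC and at 244 CPM in the control library of 48.33% GC, while C3 is highest in the sgUFM1 libraries of 49.81% to 50.29%.

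CD46 was also the only complement gene called for the difference between the effects of the guides, at -0.81 (SE 0.14, adjusted p = 6.4e-04, edgeR over 12 libraries), where 17.9% of 15821 genes were higher and 17.0% lower and the median was -0.27 over the 7 genes and -0.02 over all genes. With offsets it was -0.10 (adjusted p = 0.51). Set 1 against set 2 called none of the 7 in edgeR or DESeq2 (1 at an unadjusted p under 0.05 in each, CD46), at a background of 0.705% of 15033 genes higher and 1.49% lower; the medians were 0.03 and 0.01.

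CD55 (ENSG00000196352; chromosome 1, 207321376 to 207386804, plus strand) stood at 129, 140 and 141 CPM in sgUFM1, 130, 145 and 144 CPM in set 1, 151, 142 and 148 CPM in set 2, and 157, 162 and 165 CPM in the controls. The controls were the highest group and overlapped with none, but against them sgUFM1 had a log2 fold change of -0.24 (SE 0.10, adjusted p = 0.12, edgeR), which passed the threshold only in 1 model over 12 libraries (adjusted p = 0.047). The sgUFM1 libraries also lay below those of set 2, from 129 to 141 CPM against 142 to 151 CPM. Against set 2 the value was -0.10 (SE 0.07, adjusted p = 0.28), and with offsets -0.27 (adjusted p = 8.0e-05). CD55 transcripts have 42.68% GC.

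CD59 (ENSG00000085063; chromosome 11, 33703010 to 33736491, minus strand) stood at 166, 173 and 188 CPM in sgUFM1, 144, 168 and 164 CPM in set 1, 166, 158 and 165 CPM in set 2, and 166, 192 and 175 CPM in the controls. The sgUFM1 range overlapped with those of set 1 and the controls and met that of set 2 at 166 CPM, and the log2 fold changes of sgUFM1 were -0.02 against the controls (SE 0.10), 0.11 against set 2 (SE 0.07) and 0.15 against set 1 (SE 0.08), with adjusted p of 0.91, 0.21 and 0.29 (edgeR). The direction against the controls and against set 2 flips with GC and length offsets, to 0.05 and -0.03. CD59 shares 6.07% of its exonic bases with AL049629.2 on the same strand, which had 3 to 17 counts per library.

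The ratio of C3 RNA to that of the membrane regulators followed C3. The summed FPKM of the regulators ranged from 53.8 to 72.5 over the libraries, and C3 from 17.9 to 63.7 FPKM. The ratio is thus not separate from the result for C3. The C3 FPKM over the summed FPKM of CD46, CD55 and CD59 was 1.11, 1.02 and 0.961 in sgUFM1, 0.38, 0.725 and 0.717 in set 1, 0.457, 0.525 and 0.518 in set 2, and 0.298, 0.564 and 0.247 in the controls. Every sgUFM1 library lay above every other library. RNA levels do not give the amounts of protein secreted or on the surface.

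Most other complement genes were not expressed at a level that could be tested. Of 25 other components, 5 were tested against the controls for sgUFL1, and C1QA, C1QB, C1QC, C6, FCN1 and FCN2 had 0 counts in every library. Properdin (CFP), which stabilises the alternative convertase, was the 1 called higher, at mean levels of 12.9 CPM in sgUFM1 and 6.08 CPM in the controls (log2 fold change 1.08, SE 0.25, adjusted p = 0.02, edgeR), a call that ended in 7 of 16 alternatives. Against set 2 (7.72 CPM) CFP rose by 0.74 (SE 0.15, adjusted p = 4.7e-04) and factor D (CFD), the protease that cleaves factor B, fell by 1.81 (SE 0.40, adjusted p = 0.0013), at 0.546 CPM in sgUFM1 and 1.95 CPM in set 2, a call that none of the 16 alternatives ended. Over all genes, 5.57% were called higher and 4.43% lower against the controls, and 19.3% and 18.5% against set 2. The median over the 5 was -0.11 against the controls and 0.35 against set 2, and none was called against set 1.

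Of 19 other regulators, 7 were tested. Against set 2, 3 were lower and none higher, where 18.5% of all genes were lower and 19.3% higher. Clusterin (CLU), an inhibitor of the membrane attack complex, stood at 32.4 CPM in sgUFM1 and 48.0 CPM in set 2 (-0.56, SE 0.09, adjusted p = 3.9e-05), and C4BPB, a chain of the C4b-binding protein, at 8.69 CPM in sgUFM1 and 14.4 CPM in set 2 (-0.72, SE 0.16, adjusted p = 0.0015). C1QBP, a mitochondrial protein first described as a C1q receptor, fell by 0.22 (adjusted p = 0.012), a call that ended in 6 of 16 alternatives. CLU stood at 31.2 CPM in set 1 and 31.4 CPM in the controls, and its log2 fold change was 0.59 in set 2 against the controls (adjusted p = 0.0033) and -0.63 in set 1 against set 2 (adjusted p = 0.028). None of the 7 was called against set 1. Of 12 receptors 3 or 4 were tested, and ITGB2, the shared chain of complement receptors 3 and 4, was the 1 called, at 61.6 CPM in sgUFM1 and 42.4 CPM in the controls (0.53, SE 0.13, adjusted p = 0.028), a call that ended with offsets (0.28, adjusted p = 0.064). Against the controls 5.57% of all genes were called higher. ITGB2 averaged 58.5 CPM in set 1 and 56.7 CPM in set 2. It was also higher in set 2 against the controls (0.40, adjusted p = 0.03, edgeR), where 17.4% of all genes were higher.

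CD55 and CD59 are held on the membrane by a GPI anchor. Of 29 genes of anchor synthesis and attachment 27 were tested, with 2 higher and 3 lower in sgUFM1 against the controls (5.57% and 4.43% of all genes), 5 higher and 3 lower against set 2 (19.3% and 18.5% of all genes), and none called against set 1. The medians over the list were 0.02, 0.12 and -9.9e-05, beside -0.0045, 0.01 and -0.0062 over all genes. GPAA1, a subunit of the transamidase that attaches the anchor, stood at 170 CPM in sgUFM1 and 103 CPM in the controls (0.72, SE 0.13, adjusted p = 0.0067), and its value with offsets was 0.39 (adjusted p = 0.011). It averaged 156 CPM in set 1 and 157 CPM in set 2. The calls of PIGN (-0.61), PIGO (0.43) and PIGK (-0.47) against the controls ended with offsets (-0.41, 0.28 and -0.16, with adjusted p of 0.063, 0.076 and 0.16). Against set 2 PIGA, part of the enzyme of the first step, had 0.41 (adjusted p = 0.0023), which ended with offsets (0.13, adjusted p = 0.23), as did the calls of PIGM (0.52; 0.25 with offsets), DPM3 (-0.46; -0.06) and PIGP (0.56; 0.37). Of 6 other targets of C1 inhibitor and contact system genes 2 were tested. Tissue plasminogen activator (PLAT) stood at 246 CPM in sgUFM1 and 411 CPM in set 2 (-0.73, SE 0.07, adjusted p = 6.2e-08), and factor XII (F12) at 9.26 CPM in sgUFM1 and 17.0 CPM in set 2 (-0.87, SE 0.14, adjusted p = 7.6e-05; -0.41 and 0.011 with offsets), with F12 at 6.57 CPM in the controls, while neither was called against the controls. F12 was also lower against set 1 (13.9 CPM; -0.59, adjusted p = 0.028), which ended with offsets (-0.27, adjusted p = 0.2).

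Transcription factors known at complement promoters, and cytokines that induce complement genes, were listed with the pathway. Of 16 factors 15 were tested. Against the controls, where 5.57% of all genes were higher and 4.43% lower, 4 were higher and none lower, with a median of 0.32. Of these 4 calls, only that of CEBPB remained with GC and length offsets. CEBPD, another C/EBP factor, had 0.87 (adjusted p = 0.0095; 0.40 and 0.11 with offsets), and the NF-kB subunit NFKB2 had 0.43 (adjusted p = 0.035; 0.14 and 0.20 with offsets). CEBPB, a C/EBP factor of the acute phase, stood at 241 CPM in sgUFM1 and 137 CPM in the controls (0.81, SE 0.16, adjusted p = 0.011), and with offsets at 0.41 (adjusted p = 0.03). That call ended in 5 of 16 alternatives. IRF1, an interferon-induced factor, stood at 42.2 CPM in sgUFM1 and 26.6 CPM in the controls (0.66, SE 0.19, adjusted p = 0.044), a call that ended in 10 of 16 alternatives (0.53 and 0.072 with offsets). For all 4 the controls were the lowest group. In set 1 and set 2 the means were 239 and 213 CPM for CEBPB and 41.5 and 35.0 CPM for IRF1. CEBPD averaged 24.4 CPM in sgUFM1, 25.4 in set 1, 29.6 in set 2 and 13.3 in the controls. In set 2 against the controls 4 were higher, among them CEBPB (0.62) and CEBPD (1.13, adjusted p of 0.012 and 0.0011, edgeR), and 2 lower. Over all genes 17.4% were higher and 18.4% lower there. Against set 2, where 19.3% of all genes were higher and 18.5% lower, 4 were higher and 1 lower, with a median of 0.05. NFKBIZ, a cofactor of NF-kB, led them in edgeR, at 67.8 CPM in sgUFM1 and 43.9 CPM in set 2 (0.63, SE 0.08, adjusted p = 6.7e-06). CEBPD was lower by that fit (-0.27, adjusted p = 0.028) and higher with offsets (0.29, adjusted p = 0.02). Against set 1, where 4.57% of all genes were higher and 5.15% lower, none was higher and 1 was lower. This was the NF-kB subunit RELB (-0.40, adjusted p = 0.025, edgeR), which had -0.13 with offsets (adjusted p = 0.32).

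Of 19 cytokines and receptors 15 were tested, and IFNG and IFNB1 had 0 counts in every library. Against set 2, where 19.3% of all genes were higher and 18.5% lower, 7 were higher and 2 lower, with a median of 0.29, and IL1B (1.11, SE 0.07, adjusted p = 1.5e-10) and IL6 (1.09, adjusted p = 9.0e-08) led them in edgeR. IL6ST, the receptor chain shared by the IL-6 family, rose by 0.61 (adjusted p = 3.5e-06), and by 0.26 with offsets (adjusted p = 4.0e-05). In set 2 against the controls, 1 of the 15 was higher and 5 lower, beside 17.4% and 18.4% of all genes. IL1B was among those lower (-0.60, adjusted p = 0.0088, edgeR). IL1B averaged 720 CPM in sgUFM1, 509 CPM in set 1, 337 CPM in set 2 and 504 CPM in the controls. For IL6 these means were 29.1, 26.8, 13.8 and 23.4 CPM, and set 2 was the lowest group for both. Against the controls 1 was higher, LIF (0.71, adjusted p = 0.039, ended in 7 of 16 alternatives), with a median of -0.07, and against set 1, 2 were higher, IL6ST (0.45, adjusted p = 0.012; 0.29 and 0.073 with offsets) and IL1B (0.50, adjusted p = 0.035, ended in 7 of 16 alternatives). Over all genes, 5.57% were called higher against the controls and 4.57% against set 1. LIF averaged 173 CPM in sgUFM1, 161 CPM in set 1, 142 CPM in set 2 and 105 CPM in the controls. The comparisons share the sgUFM1 libraries, so their values are not independent of each other.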

How the data were processed

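RNA libraries followed standard Illumina protocols with no strand stated, per the labels' protocols. The deposited table of counts holds whole-number reads per gene for 12 libraries, with 15342793 to 18033331 in total per library. The second deposited table holds FPKM values of the authors for the same genes. The submitters' processing notes name GRCh38, featureCounts 2.0.0, STAR 2.7.7a and fastp 0.20.1, with no settings. Each FPKM column was matched to its count column by proportionality over 13464 genes (SD of the log2 ratio at most 9.5e-10 for the match and at least 0.2519 for the next best), and groups follow the names of the count table, never measured values. The values of replicates differed by more than sampling noise in every pair (chi-square per gene of 2.41 to 34.88), so none was merged.

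Under R 4.3.3, the quasi-likelihood test of edgeR 4.0.16 was run on the counts of all genes kept by filterByExpr, scaled by TMM, and p-values were adjusted after Benjamini and Hochberg with a threshold of 0.05. Each fit used the 6 libraries of a comparison or all 12 for the difference between guides. CPM are scaled by TMM over 12 libraries, except the summed CPM of marker lists, which are scaled by library size alone. GC content came from GENCODE 29 transcripts for 58676 genes. Alternatives were RLE scaling, no filter, DESeq2 1.42.0, 1 model over 12 libraries, a replicate block, offsets for GC content and length (a lowess curve of span 0.3 in each library), limma 3.58.1 with pseudocounts of 0.5 and 0.1 on the log2 FPKM scale (keeping genes that reach 0.5 FPKM in 3 libraries, or all), and each library left out. Leaving out both libraries that stand apart, and the settings for genes other than the 9, were added after seeing the data. The 9 genes and all lists were chosen with earlier results of these data known. Named beside them are up to 4 called genes per list and comparison by smallest p, and the 3 genes most correlated with each member. The fits were tested on simulated data with 200 changed genes. In sgUFM1 against the controls 31.3% of 1.5-fold, 74.6% of 2-fold and 89.4% of 4-fold changes were called, and 13 of 143 calls were false. For set 1 against the controls the shares called were 13.4%, 61.2% and 83.3%. For the difference between guides they were 14.9%, 47.8% and 81.8%. A gene not called may therefore still differ. Some list genes are not reported here.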

Additional observations from a re-analysis of the deposited data

Results flagged for a closer look

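The effects of the guides differed for CD46, by a test of the difference itself: the log2 effect of the UFL1 guide minus that of the UFM1 guide, each against its own controls, was -0.81 (SE 0.14, adjusted p = 6.4e-04, edgeR over 12 libraries). It was -0.10 (adjusted p = 0.51) with offsets for GC content and length, and -0.93 (adjusted p = 3.5e-05) without set 1 replicate 1 and control replicate 2. Such calls were common, since 17.9% of 15821 genes were higher and 17.0% lower in this test with all libraries and no offsets.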

How the results depend on the processing

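C3 kept its direction in sgUFM1 against all 3 other groups under every alternative run there. The number of complement genes called in sgUFM1 against the controls for sgUFL1 was 2 in 1 model over 12 libraries (C3 and CD55), 0 in limma on FPKM with no filter, and 1 to 3 without single libraries. Against set 2 it was 3 with GC and length offsets (C3, C1R and CD55, with CD46 no longer called), and 2 to 3 without single libraries. Against set 1 it was 0 in 1 model over 12 libraries and in all 3 limma fits, and 0 to 3 without single libraries. In set 1 against the controls it was 1 with no filter (C3), in DESeq2 and in 1 model over 12 libraries (CD46 in both), 3 without both libraries that stand apart (C3, C1S and CD46), and 0 to 2 without single libraries. In set 2 against the controls it was 0 with GC and length offsets, alone or with a replicate block, and 1 to 2 without single libraries. In set 1 against set 2 it was 1 with no filter (C3) and 1 with a replicate block (CD46, adjusted p = 0.048), and 0 to 2 without single libraries. For the difference between the guides it was 2 with no filter (C3 and CD46) and 1 to 2 without single libraries. With GC and length offsets it was 1, but the gene called was CD55 in place of CD46. The cause of these changes was not tested.

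Values that reversed were those of genes not called in the comparison concerned, except CEBPD against set 2 (0.29 with GC and length offsets, 0.28 with a replicate block added). With those offsets, alone and with a replicate block, the log2 fold changes in sgUFM1 were 0.05 for CD46 and for CD59 against the controls and -0.03 for CD59 against set 2. In set 1 against the controls they were 0.02 for CD46, 0.04 for CD55 and -0.11 for C1R. In set 2 against the controls they were 0.20 for CD55, 0.07 for CD59 (0.08 with the block), -0.04 for C1R (-0.03 with the block) and, with offsets alone, -0.04 for C3. For the difference between the guides they were 0.32 for CD55 (adjusted p = 0.04) and 0.01 for CD59. With a replicate block alone CFB was -0.003 against set 1, and C1S was -0.04 in set 1 against set 2, also with offsets; limma with no filter gave -0.00052 for that C1S value. Without both libraries that stand apart, C1S was 0.58 for the difference between the guides. The ranges below are over fits without single libraries, for genes that reversed in one of them. In sgUFM1 they were -0.07 to 0.04 for CD59 against the controls, -0.09 to 0.56 for CFB against set 2, and -0.22 to 0.31 for CFB and -0.07 to 0.01 for CD55 against set 1. In set 1 against the controls they were -0.09 to 0.95 for C1S and -0.01 to 0.23 for C1R. In set 2 against the controls they were -0.05 to 0.56 for C3 and -0.14 to 0.87 for C1S. In set 1 against set 2 they were -0.33 to 0.34 for C1S and -0.09 to 0.53 for CFB. For the difference between the guides the range was -0.77 to 0.29 for C1S. Of 1482 alternative values, 1121 log2 values kept their direction and side of the threshold, and 95 counts stayed within 1.5 times the reported count.

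The replicate numbers did not pair the libraries: deviations of same-numbered libraries from their group means correlated at -0.212 to 0.378, in no comparison above 0.1 for all 3 numbers. With a replicate block, 1868 genes were called in sgUFM1 against the controls (1503 without), 978 against set 1 (1456 without), 832 in set 1 against set 2 (330 without) and 0 in set 1 against the controls (165 without), where 4872 had an unadjusted p under 0.05 and DESeq2 without the block called 1241 higher and 456 lower. No more than 4 of the 6 libraries of a comparison correlated best with their own number. Beside CD46 above, the block changed 1 other call of a named gene in sgUFM1, that of RELB against set 1 (adjusted p = 0.056). Depth limits CFB, C1S and SERPING1, with at most 63 counts per library, and the calls of CD46 end with GC and length offsets. With 3 libraries per group, 1 library changed the C3 call in set 1 against the controls (0.93, adjusted p = 0.031 without control replicate 2).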
